A study of Mus musculus with 2 samples.

Results

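The cytosolic ribosomal protein genes were taken as all genes whose symbol begins with Rpl or Rps and a number, without names containing -ps, together with Rpsa and Rplp0, Rplp1 and Rplp2. This gave 96 of the 32285 genes listed. Of these, 43 encode proteins of the large subunit, 31 proteins of the small subunit and 3 proteins of the acidic stalk, 77 in all. A further 7 are paralogues of such genes (Rpl3l, Rpl10l, Rpl22l1, Rpl36al, Rpl39l, Rps27l and Rps27rt). The naming rule also takes in 12 genes that encode no ribosomal protein: 10 of the S6 kinase family, which are kinases named after the ribosomal protein they were found to phosphorylate, and Rpl7l1 and Rps19bp1.

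Single CD45+ cells from the lamina propria of mouse colon, sorted after a Percoll gradient and without dead cells, were profiled in 2 droplet libraries, CD163_FL and CD163_NC. Mice deficient in CD163+ macrophages and wild-type mice are named in the title, and no label ties either library to one of these genotypes, so the libraries keep their label names. No age, sex, strain, number of animals or deletion strategy is given in the labels. With 1 library per group there is no replicate, and no test between the libraries was possible. Every interval below is a 95% interval that covers counting error only, and a difference between the libraries cannot be told apart from a difference between animals, sorts or library preparations.

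A ribosome has a small subunit that reads the messenger RNA and a large subunit that joins amino acids, and each ribosomal protein is normally needed in one copy per particle, with the stalk proteins Rplp1 and Rplp2 as an exception. The messenger RNAs of these genes are among the most abundant of a cell. Many carry a terminal oligopyrimidine tract, a C at the very first base followed by a run of C and T, through which the mTOR pathway controls their translation. Lymphocytes raise ribosome production when they are activated and divide, and plasma cells use ribosomes at the endoplasmic reticulum to make antibody.

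Start-site windows of genes described below are shown to let the tract be seen in members that differed most and least between the libraries. They are RefSeq start sites of GRCm38.p6, each with 25 bases before the start and 25 from it, with 1 of the annotated starts shown for Rps27l. Capitals mark a C followed by at least 4 bases that are each C or T, where that C lies within 3 bases of the start.
Rpl35 (chr2:39005107-39005156, minus strand): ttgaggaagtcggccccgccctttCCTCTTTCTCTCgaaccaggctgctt
Rps27 (chr3:90213624-90213673, minus strand): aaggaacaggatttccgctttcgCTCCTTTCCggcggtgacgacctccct
Rps18 (chr17:33955641-33955690, minus strand): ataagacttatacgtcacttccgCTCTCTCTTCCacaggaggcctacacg
Rpl13a (chr7:45128721-45128770, minus strand): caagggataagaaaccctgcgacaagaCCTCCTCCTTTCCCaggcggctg
Rps27l (chr9:66946061-66946110, plus strand): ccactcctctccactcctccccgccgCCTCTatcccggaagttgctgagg
Rpl39 (chrX:37085198-37085247, minus strand): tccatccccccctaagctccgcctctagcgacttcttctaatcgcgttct
Rps15 (chr10:80292406-80292455, plus strand): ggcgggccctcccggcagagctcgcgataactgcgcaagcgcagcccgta

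Rpl35, Rps27 and Rps18 carry the run and were among the members with the largest difference between the libraries, and Rpl13a carries it and differed little. Rpl39 had the lowest log2 ratio of the measured members in B cells (-0.88) and plasma cells (-0.76). It has no such run beginning within 3 bases of the annotated start. A run of CCTCT in its window begins just outside that limit and ends on the start base. Rpl37 and Rps28, not shown and also among the largest differences, have none there either, nor has Rps15, which was higher in CD163_FL. This says only that no such run begins within that limit in these windows. The promoter table matched 74 of the 96 members. Among 57 subunit and stalk genes in it, 13 (22.8%) had the run beginning at the start base itself, against 3.01% of all 27025 genes in the table. Beginning within 3 bases of the start, 23 of the 57 (40.4%) had it, against 13.5% of all genes. Of 69 genes for mitochondrial ribosomal proteins, which belong to a separate ribosome, 0 had it beginning at the start base and 9 (13%) within 3 bases.

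After cell filters, 13722 cells of CD163_FL with 118383800 UMIs and 9705 cells of CD163_NC with 88781795 UMIs were kept. A UMI, a unique molecular identifier, counts 1 captured RNA molecule, here at its 3' end and not divided by length. Cells were assigned to lineages from marker genes, and 5 gates had at least 100 cells in each library: T cells (6476 in CD163_FL and 2877 in CD163_NC), NK and innate lymphoid cells (515 and 171), B cells (1091 and 1836), plasma cells (1244 and 1098) and macrophages and monocytes (866 and 270). Cells with markers of more than 1 lineage made up 8.34% of CD163_FL and 21.3% of CD163_NC and entered no gate. Although the cells are labelled CD45+, 147 cells of CD163_NC fell in an epithelial gate and 52 of CD163_FL in a fibroblast gate. The neutrophil marker S100a8 had a UMI in 0.880% of T cells of CD163_FL and in 38.3% of T cells of CD163_NC, and in 1.61% of plasma cells of CD163_FL and 46.7% of those of CD163_NC, so that a neutrophil RNA was spread over other gates there. The plasma cell gate also held the epithelial gene Epcam in 50.5% of cells of CD163_FL and 41.7% of those of CD163_NC. The macrophage and monocyte gate held Csf3r, used as a neutrophil marker, in 43.0% of cells of CD163_FL and 44.4% of those of CD163_NC. Its own marker Cd14 had a UMI in 91.3% of its cells in CD163_FL and 62.6% in CD163_NC. Mzb1, used as a marker of the plasma cell gate, had a UMI in 29.5% of B cells of CD163_FL and in 51.9% of those of CD163_NC. Whether Csf3r and Mzb1 RNA came from the cells of these gates themselves was not tested. The part of these RNAs in the results below was not tested. The libraries shared 49 barcodes, and leaving these out moved no ratio by more than its counting interval.

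Ribosomal protein genes took a smaller part of the UMIs in CD163_FL than in CD163_NC in every one of the 5 gates. Over all kept cells the share was 11.0% in CD163_FL and 14.3% in CD163_NC, a ratio of 0.770 (0.769 to 0.770). T cells had 12.8% in CD163_FL and 16.4% in CD163_NC, a ratio of 0.779. B cells had the highest shares of the 5 gates in CD163_FL and in CD163_NC, 15.0% and 20.2%, a ratio of 0.745. In NK and innate lymphoid cells the shares were 11.5% in CD163_FL and 16.5% in CD163_NC, and in macrophages and monocytes 7.72% in CD163_FL and 11.1% in CD163_NC, each a ratio of 0.696. Plasma cells had 7.59% in CD163_FL and 9.67% in CD163_NC, a ratio of 0.785. Without immunoglobulin and mitochondrial UMIs, plasma cells had 14.2% in CD163_FL and 18.1% in CD163_NC.

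**Figure D1:**
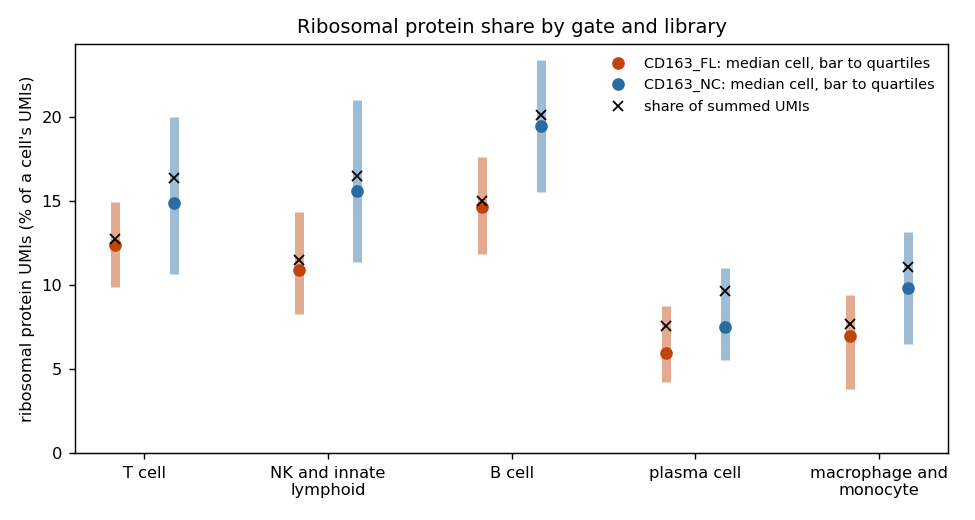
Share of a cell's UMIs from ribosomal protein genes (%, vertical axis) by gate, with CD163_FL left of CD163_NC. Points are the median cell, bars run between the quartiles of cells and crosses are shares of summed UMIs; cells of 1 library are not replicates. The median cell is lower in CD163_FL in each gate, and the quartile ranges of the libraries overlap in each gate.

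The cells of a gate spread widely around these values. The median T cell held 12.4% ribosomal protein UMIs in CD163_FL, with quartiles of 9.88% and 15.0%, and 14.9% in CD163_NC, with quartiles of 10.7% and 20%. The median macrophage or monocyte held 6.97% in CD163_FL and 9.86% in CD163_NC. Mitochondrial UMIs moved the other way: the median T cell had 2.49% in CD163_FL and 1.65% in CD163_NC, and the median macrophage or monocyte 2.05% in CD163_FL and 1.13% in CD163_NC. Among cells with 1 to 3% mitochondrial UMIs, a range chosen after seeing the data, the T cell ratio was 0.754 and the macrophage ratio 0.713.

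The 77 subunit and stalk genes were lower as a group, and not evenly. Of these, 67 were lower in CD163_FL in all 5 gates and 3, Rpl23a, Rps15 and Rpl13a, were higher in all 5, Rpl13a by as little as 0.00 on the log2 scale in macrophages and monocytes. The median log2 ratio of the 77 genes, CD163_FL over CD163_NC, was -0.31 in T cells, -0.51 in NK and innate lymphoid cells, -0.42 in B cells, -0.33 in plasma cells and -0.49 in macrophages and monocytes. The medians of all genes measured were -0.03 in T cells, -0.01 in NK and innate lymphoid cells, 0.00 in B cells, 0.07 in plasma cells and -0.23 in macrophages and monocytes. Genes needed at least 20 UMIs over both libraries to be measured.

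In T cells 10 of 93 measured members were at or past 1.5-fold lower in CD163_FL, beside 22.4% of all genes measured. In B cells it was 15 of 90, beside 19%, and in plasma cells 8 of 90, beside 12.9%, so that in these 3 gates the members' share was below that of all genes. In NK and innate lymphoid cells it was 29 of 90, beside 20.1%, and in macrophages and monocytes 31 of 91, beside 33.9%. Over genes with at least 1000 UMIs, a limit chosen after seeing the data, 9 of 86 members were past the fold in T cells, beside 7.59% of genes, 26 of 80 in NK and innate lymphoid cells, beside 10.3%, and 15 of 84 in B cells, beside 7.39%. In plasma cells 8 of 85 were past it, beside 5.45%, and in macrophages and monocytes 26 of 80, beside 16.4%. In T cells 86 of the 93 measured members reached this limit, but only 6750 of all 14597 genes measured. With it, the members' share lower was above that of all genes in each of the 5 gates. How the members stand against other genes therefore depended on this limit in T, B and plasma cells. In NK and innate lymphoid cells their share was above that of all genes with either limit. Higher by 1.5-fold were 2 members in T cells, beside 11.7% of all genes, 1 in NK and innate lymphoid cells, beside 17.4%, 0 in B cells, beside 11.4%, 3 in plasma cells, beside 16.4%, and 2 in macrophages and monocytes, beside 18.7%. With at least 1000 UMIs they were 1 in T cells, beside 10.9%, 0 in NK and innate lymphoid cells, beside 21.1%, 0 in B cells, beside 10.2%, 1 in plasma cells, beside 18.6%, and 0 in macrophages and monocytes, beside 34.8%. Over all kept cells 11 of 95 members were lower, beside 23.3%, and 5 higher, beside 16.4%, and with at least 1000 UMIs 11 of 90 were lower, beside 12.2%, and 2 higher, beside 14.4%. Under median ratio scaling 13 members were lower in macrophages and monocytes and 15 in plasma cells. In cells with 5000 to 10000 UMIs, a range also chosen after seeing the data, 16 were lower in T cells, 7 in B cells and 19 over all kept cells. The share of all genes past the fold was not computed under these settings. Whether it moved alike is therefore not known.

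**Figure D2:**
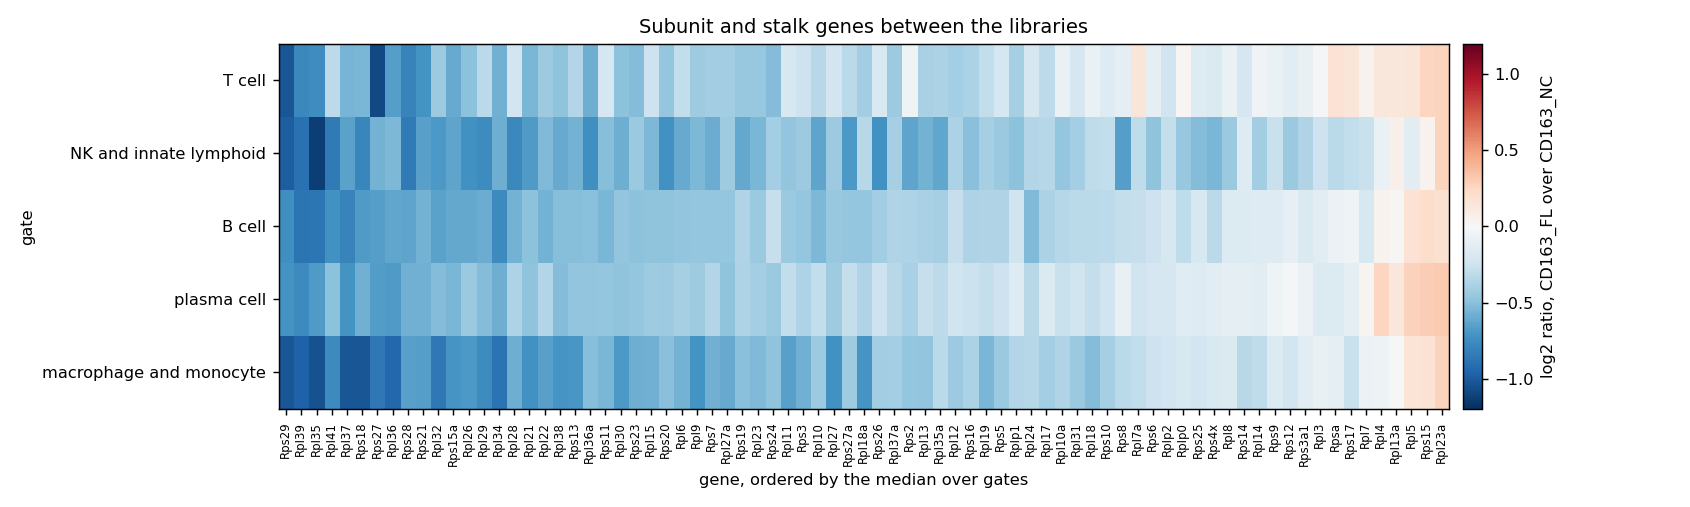
Log2 ratio of CD163_FL over CD163_NC (colour) for each of the 77 subunit and stalk genes (columns, ordered by the median over gates) in the 5 gates (rows). Blue is lower in CD163_FL; Rps29, Rpl39 and Rpl35 stand at the low end, and Rpl23a, Rps15 and Rpl5 at the other.

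The 5 members with most UMIs were Rpl41, Rps24, Rps29, Rpl37a and Rps27. Rps24, of the small subunit, had 3298 CPM over all kept cells of CD163_FL and 4540 CPM over those of CD163_NC, with a log2 ratio from -0.52 in T cells to -0.28 in B cells. Rpl37a, of the large subunit, had 3054 CPM in CD163_FL and 3862 CPM in CD163_NC. Rpl41 had 3280 CPM in CD163_FL and 4874 CPM in CD163_NC, and its log2 ratio was -0.31 in T cells and -0.85 in NK and innate lymphoid cells. All 77 subunit and stalk genes were above 100 CPM over all kept cells in both libraries, so that counting error is small for each of them.

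Among small subunit proteins the lowest ratios were those of Rps29 and Rps27, small proteins with a zinc finger. Rps29 had 2853 UMIs per 1000000 UMIs of the gate (CPM) in T cells of CD163_FL and 5824 CPM in those of CD163_NC, and its log2 ratio lay between -1.03 and -0.72 over the 5 gates. Rps27 had 2677 CPM in T cells of CD163_FL and 5677 CPM in those of CD163_NC, a log2 ratio of -1.08 (-1.10 to -1.07). Its ratio was nearer 0 in the other gates, at -0.57 in NK and innate lymphoid cells. Rps28 had a log2 ratio of -0.80 in T cells and Rps18 one of -1.02 in macrophages and monocytes. Rps15, also of the small subunit, stood at the other end, with 1115 CPM in T cells of CD163_FL and 935.4 CPM in those of CD163_NC, a log2 ratio of 0.25.

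Of the large subunit, Rpl35, Rpl37 and Rpl39 were lowest. Rpl35 had 859.9 CPM in NK and innate lymphoid cells of CD163_FL and 1877 CPM in those of CD163_NC, a log2 ratio of -1.13 (-1.21 to -1.04), and -1.04 in macrophages and monocytes. Rpl37 had a log2 ratio of -1.03 in macrophages and monocytes and -0.80 in B cells. Rpl39 had 2624 CPM in B cells of CD163_FL and 4822 CPM in those of CD163_NC, a log2 ratio of -0.88. Rpl23a, which lies near the exit of the tunnel that the new protein chain leaves through, had log2 ratios between 0.18 and 0.31 over the 5 gates, with 774.3 CPM in T cells of CD163_FL and 644.6 CPM in those of CD163_NC. Rpl5, which carries a ribosomal RNA into the large subunit and can bind Mdm2, had log2 ratios of 0.15 in T cells, -0.13 in NK and innate lymphoid cells, 0.17 in B cells, 0.27 in plasma cells and 0.16 in macrophages and monocytes. Outside the naming rule, Fau, a small subunit protein made as a fusion, had a log2 ratio of -0.38 over all kept cells, and Rack1, a scaffold on the small subunit, one of 0.07.

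The ratio went with the length of the coding sequence. Across the 77 genes, Spearman's rho between the log2 ratio and coding length was 0.68 in T cells, 0.46 in NK and innate lymphoid cells, 0.52 in B cells, 0.58 in plasma cells and 0.53 in macrophages and monocytes. The points share their 2 libraries, so these are descriptions with no test. With annotated transcript length rho was between 0.25 and 0.30. Each gene had 1 transcript, the longest where principal transcripts had equal coding length, as for Rps15a with 5179 bases and 390 coding bases. Whether this choice changed rho was not tested. With mean CPM, rho of the log2 ratio was between -0.46 in T cells and -0.27 in NK and innate lymphoid cells. Among other genes with a mean of at least 100 CPM, rho with coding length was -0.01 over 1830 genes in T cells, 0.31 over 1695 in NK and innate lymphoid cells, 0.37 over 1777 in B cells, 0.59 over 842 in plasma cells and 0.37 over 1642 in macrophages and monocytes. A positive rho was thus found for other genes too in 4 of the 5 gates, T cells being the exception. Lengths are from GENCODE release 21 models.

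**Figure D3:**
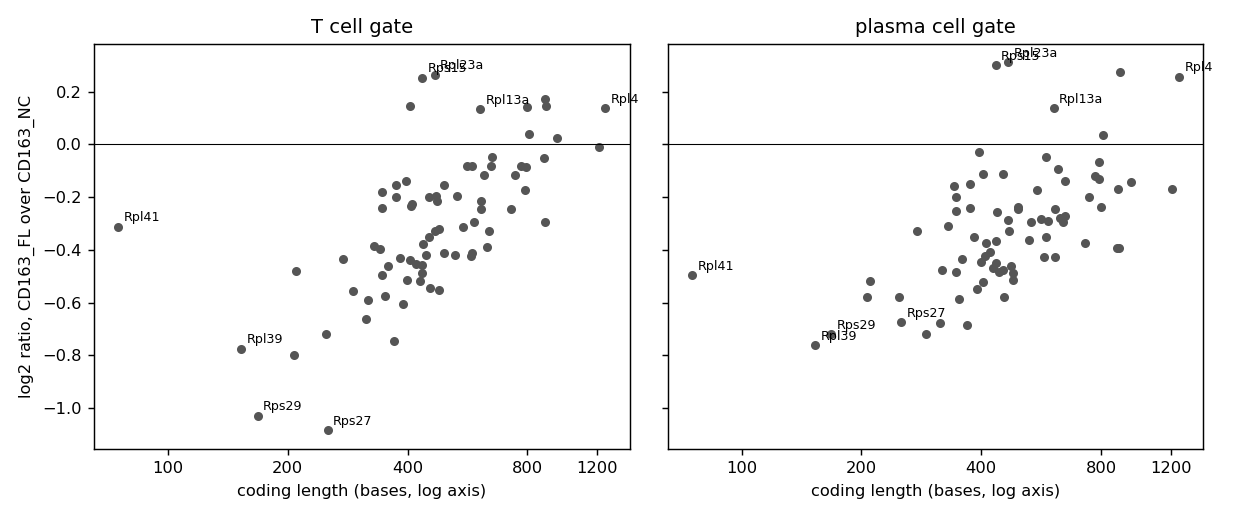
Log2 ratio of CD163_FL over CD163_NC (vertical axis) against coding length in bases (log axis) for the 77 subunit and stalk genes in the T cell and plasma cell gates. Each point is 1 gene; short genes such as Rps29 and Rpl39 lie low in both gates, and Rpl41, the shortest, lies above them.

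Other groups of translation genes, chosen with earlier results known, gave medians that varied by gate. Of all genes measured, 22.4% were at or past 1.5-fold lower and 11.7% higher in T cells. In B cells these shares were 19% and 11.4%. Of 17 elongation factor and related genes, of which the promoter table matched 12 and 1 (8.33%) had the run at its start base, 0 were at or past 1.5-fold lower and 1 higher in T cells, with a median log2 ratio of 0.18, and 0 lower and 0 higher in B cells, with a median of -0.05. Eef1a1, the main elongation factor, had 3121 CPM in T cells of CD163_FL and 2936 CPM in those of CD163_NC. Of 19 initiation factors 0 were past 1.5-fold in T cells, and their median was 0.30. The genes for mitochondrial ribosomal proteins differed by gate: 2 of 78 were past 1.5-fold lower and 5 higher in T cells, with a median of 0.21, while 58 of 77 were lower and 0 higher in macrophages and monocytes, with a median of -0.94, beside 33.9% of all genes lower and an all-gene median of -0.23 there. Mrpl33 had 127.9 CPM in macrophages and monocytes of CD163_FL and 268.4 CPM in those of CD163_NC. In the same gate, beside the same 33.9%, 14 of 30 ribosome assembly factors were lower, with a median of -0.58, and 9 of 14 genes of RNA polymerase I and its factors, with a median of -0.66. In T cells 1 of the 30 assembly factors was lower, with a median of -0.02. Of 17 growth regulators of ribosome synthesis measured, 0 were lower and 1 higher in T cells, with a median of 0.06. In macrophages and monocytes 6 of them were lower and 3 higher, with a median of -0.31. There 33.9% of all genes were lower and 18.7% higher. Rptor, a subunit of the mTOR complex, had 248.8 CPM in T cells of CD163_FL and 126.2 CPM in those of CD163_NC. Mdm2, which binds ribosomal proteins and degrades p53, had 1003 CPM in macrophages and monocytes of CD163_FL and 441.8 CPM in those of CD163_NC.

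Dividing cells were set against the other cells of their gate in plasma cells and T cells, leaving out immunoglobulin and mitochondrial UMIs. Cycling plasma cells had 17.4% and non-cycling plasma cells 12.9% in CD163_FL, and cycling plasma cells 22.1% and non-cycling 16.4% in CD163_NC, a ratio of 1.35 in each library. Of the 77 genes, 76 were higher in cycling plasma cells in each library, and 21 were at or past 1.5-fold higher in each, beside 16.4% of all genes in CD163_FL and 15% in CD163_NC. The median log2 ratio of the 77 was 0.51 in CD163_FL and 0.50 in CD163_NC, beside 0.02 and -0.05 for all genes. The exception to the higher level in both was Rps24, with a log2 ratio of -0.18 in CD163_FL and -0.25 in CD163_NC. Rps2 was the farthest up in both, with log2 ratios of 0.95 in CD163_FL and 0.86 in CD163_NC. Cycling plasma cells also held more UMIs, a median of 22226 against 16011 in non-cycling ones of CD163_FL. In T cells the cycling over non-cycling ratio was 0.988 in CD163_FL and 0.929 in CD163_NC, and 41 of the 77 genes were higher in cycling cells of CD163_FL and 24 in those of CD163_NC. The difference between the 2 lineages was not tested.

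**Figure D4:**
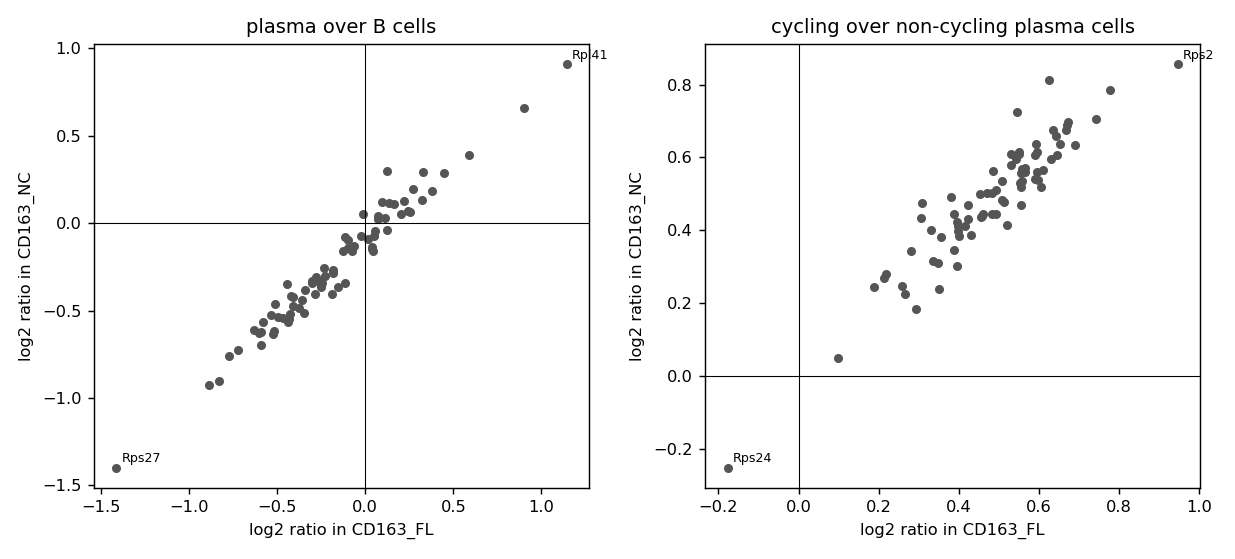
Log2 ratio of plasma over B cells (left) and of cycling over non-cycling plasma cells (right), in CD163_FL (horizontal axis) and CD163_NC (vertical axis), each point 1 of the 77 subunit and stalk genes. On the left Rps27 is lowest and Rpl41 highest in both libraries, and on the right all points but Rps24 lie above 0 on both axes.

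Gates also differed in which ribosomal protein genes made up the total. The composition of a gate is each member's share of all member UMIs there, given as log2 over the mean of the 5 gates, so that the total drops out. Of 86 members measured in every gate and library, 10 being too low, 59 had the same highest gate in both libraries and 62 the same lowest. Of the 77 subunit and stalk genes, 5 had a range over gates of at least 1 on this scale in both libraries, Rpl41, Rps27, Rpl12, Rps9 and Rpl10. Rpl8 had the smallest, with a range of 0.098 in the library where it was narrower.

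Plasma cells were the highest or lowest gate for 4 of these 5. Rpl41, which has the shortest coding sequence, had a composition of 0.81 in plasma cells of CD163_FL and 0.78 in those of CD163_NC, the highest gate in both. Rps27 had -0.82 in plasma cells of both libraries, the lowest gate, at 992.1 CPM in CD163_FL and 1584 CPM in CD163_NC, while B cells had 4719 CPM in CD163_FL and 7468 CPM in CD163_NC. Set directly against B cells, without immunoglobulin and mitochondrial UMIs, plasma cells had a log2 ratio for Rps27 of -1.41 in CD163_FL and -1.40 in CD163_NC, and for Rpl41 of 1.14 in CD163_FL and 0.91 in CD163_NC. In that comparison 9 of 77 genes were at or past 1.5-fold lower in CD163_FL, beside 28.6% of all genes, and 11 in CD163_NC, beside 31.7%. Higher were 3 in CD163_FL, beside 35.5%, and 2 in CD163_NC, beside 31.2%. Rpl10, which is placed late in assembly of the large subunit, was at 0.55 in composition in plasma cells of CD163_FL and 0.50 in those of CD163_NC.

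Macrophages and monocytes differed in other members. Rpl12, a large subunit protein at the base of the stalk, had a composition of -0.75 there in both libraries, the lowest of the 5 gates, with 320.6 CPM in CD163_FL and 433.4 CPM in CD163_NC. Rps9, of the small subunit, had its highest gate there, with 0.61 in CD163_FL and 0.55 in CD163_NC. Set against T cells, macrophages and monocytes had a log2 ratio for Rpl12 of -1.71 in CD163_FL and -1.69 in CD163_NC, the lowest of the 77, and for Rpl10 of 0.14 in CD163_FL and 0.24 in CD163_NC, the highest. In this comparison 65 of 77 genes were at or past 1.5-fold lower in CD163_FL, beside 54.5% of all genes, and 37 in CD163_NC, beside 44.3%. NK and innate lymphoid cells had the highest composition of Rplp1, a stalk protein, with 4147 CPM in CD163_FL and 5850 CPM in CD163_NC.

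**Figure D5:**
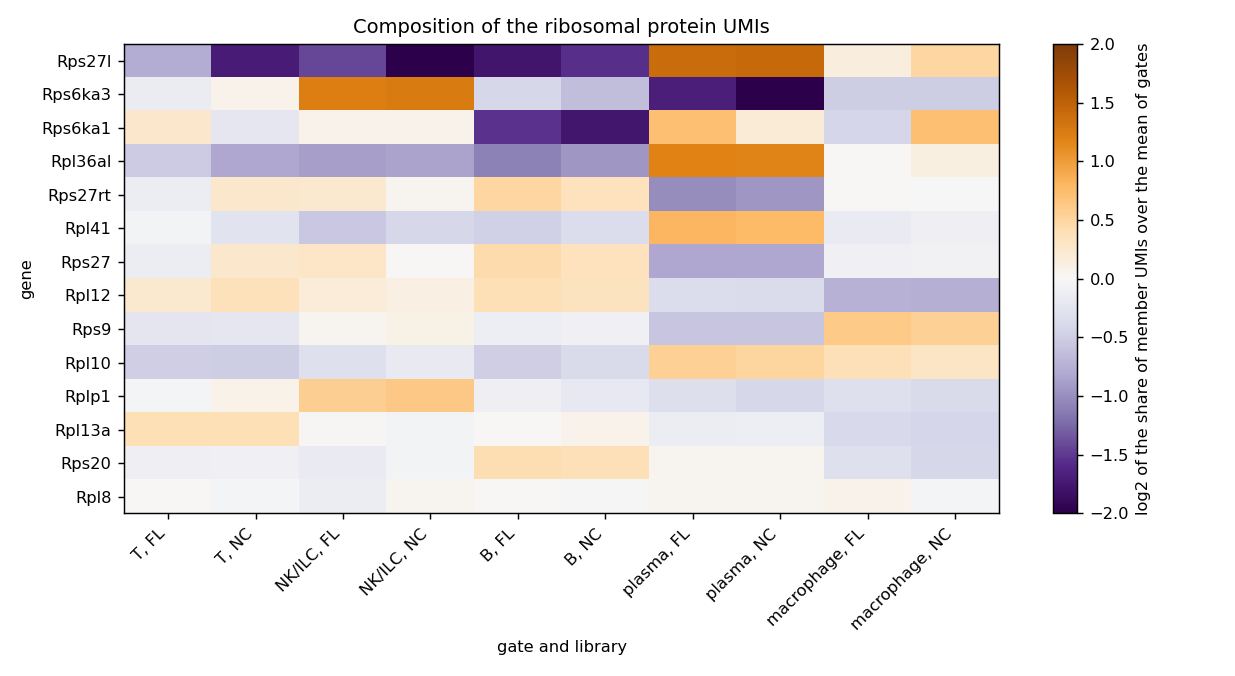
Composition of the ribosomal protein UMIs by gate and library (columns; CD163_FL left of CD163_NC), as log2 of a member's share over the mean of the gates. The first 8 rows are the members with the largest range; colours run alike in the libraries for most rows, with plasma cells apart for Rps27l, Rpl36al, Rpl41 and Rps27.

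Of the members that encode ribosomal proteins, the paralogues Rps27l and Rpl36al had the widest ranges of composition over gates, 3.17 for Rps27l and 2.13 for Rpl36al in the library where each was narrower. Rps27l, a p53-responsive relative of Rps27, took 21.1% of the pair in plasma cells of CD163_FL (20.6 to 21.5) and 17.8% in those of CD163_NC (17.4 to 18.2). In B cells it took 1.22% in CD163_FL and 1.19% in CD163_NC. Rpl36al, a relative of Rpl36a, took 72.1% of its pair in plasma cells of CD163_FL and 67.9% in those of CD163_NC, 62.5% in macrophages and monocytes of CD163_FL and 62.3% in those of CD163_NC, and 33.4% in B cells of CD163_FL and 32.1% in those of CD163_NC. In T cells it took 51.1% in CD163_FL and 39.6% in CD163_NC. Rpl22l1, the relative of Rpl22, took between 21.9% and 33.8% of its pair in every gate.

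The paralogues Rpl10l, Rpl3l and Rpl39l were near or below what could be detected. Rpl10l had 0 UMIs among all kept cells of either library, which allows up to 0.0253 CPM in CD163_FL and 0.0338 CPM in CD163_NC. Rpl3l, known in heart and skeletal muscle, had 42 UMIs in all of CD163_FL and 41 in all of CD163_NC. Macrophages and monocytes held 8 of these in CD163_FL and 11 in CD163_NC. A neutrophil gate of 150 cells in CD163_NC held another 11. Rpl39l, known in testis, had 123 UMIs in CD163_FL and 52 in CD163_NC. Rps27rt, a retrogene copy of Rps27 with 1 exon and the same coding length, took 3.0% to 3.61% of its pair in the 5 gates of CD163_FL and 2.23% to 2.54% in those of CD163_NC. Its counts are uncertain, since reads of so similar a copy can be assigned to either gene.

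The S6 kinases, which match the naming rule only through their names, had ratios of either sign. Rps6ka3, a kinase of the RSK family, was higher in CD163_FL in all 5 gates, by a log2 ratio of 0.18 in T cells to 1.01 in plasma cells, and NK and innate lymphoid cells had most of it, with 416.8 CPM in CD163_FL and 364.8 CPM in CD163_NC. Rps6ka2 had 80.6 CPM in macrophages and monocytes of CD163_FL and 13.4 CPM in those of CD163_NC, from 465 UMIs in CD163_FL and 24 in CD163_NC, a log2 ratio of 2.59 (2.00 to 3.24), where 18.7% of all genes were at or past 1.5-fold higher. Rps6kb1, which encodes the S6 kinase itself, had log2 ratios between -0.21 in T cells and 0.38 in B cells. Rps6ka1, another RSK kinase, had 13.9 CPM in macrophages and monocytes of CD163_FL and 52.6 CPM in those of CD163_NC, from 80 UMIs in CD163_FL and 94 in CD163_NC, a log2 ratio of -1.92. A neutrophil gate of 150 cells in CD163_NC had 130.2 CPM of Rps6ka1, from 129 UMIs. The part of neutrophil RNA in the Rps6ka1 ratio was not tested. Rps6ka5, which encodes the kinase MSK1, had a log2 ratio of 0.58 in macrophages and monocytes and 0.34 in B cells. Rps6kc1 had 10.7 CPM in plasma cells of CD163_FL and 5.54 CPM in those of CD163_NC, and Rps6kb2 and Rps6ka4 had at most 14.5 CPM in any of the 5 gates. Rps6ka6 and Rps6kl1 had at most 41 UMIs in a library. Rpl7l1 had log2 ratios from -0.65 in macrophages and monocytes to 0.01 in T cells, and Rps19bp1, a nucleolar protein that binds Rps19, from -0.88 in macrophages and monocytes to 0.21 in T cells.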

How the data were processed

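UMI counts per gene and cell were written by Cell Ranger 7.1.0, per the file headers, and used as deposited by the authors, not normalized; the submitters' processing notes name mm10 and Seurat 4. The aligner's settings were not given in the sources used here. Cells needed at least 500 UMIs, 200 genes and at most 10% mitochondrial UMIs, and Scrublet (scanpy 1.11.5, Python 3.11.15) removed 657 called doublets of CD163_FL and 307 of CD163_NC. A cell entered a gate with UMIs of at least 2 of its markers and fewer than 2 of any other lineage, except that innate lymphoid markers do not bar a T cell. Counts were summed per gate and library, with exact binomial intervals for shares and exact conditional intervals for ratios. With 1 library per group no test was run. The ratio table was tested on simulated data. Genes named are the 5 highest and lowest, the 8 of largest composition range, the 3 extreme ratios per gate, the paralogues and the matches that encode no ribosomal protein; further genes were named after their values were seen. The members, gates and lists were chosen with earlier results of these data known. Alternatives changed the cell filters, doublets, gates, scaling, minimum counts and depth. Some results are not reported here.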

Additional observations from a re-analysis of the deposited data

Results flagged for a closer look

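Rps27l was the 1 member with at least 200 UMIs that passed 1.5-fold in opposite directions in different gates. Its log2 ratio of CD163_FL over CD163_NC was 0.59 in T cells, from 5215 UMIs in CD163_FL and 1151 in CD163_NC, and -0.86 in macrophages and monocytes, from 655 UMIs in CD163_FL and 369 in CD163_NC, a difference of 1.45 on the log2 scale. With 1 library per group the difference was not tested.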

How the results depend on the processing

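No paired analysis was possible because each group has 1 library. The share was lower in CD163_FL under every alternative run, with ratios from 0.687 to 0.816. Ratios outside their counting interval follow. With at most 5% mitochondrial UMIs they were 0.778 (all kept cells), 0.790 (T), 0.702 (NK and innate lymphoid), 0.750 (B), 0.790 (plasma) and 0.704 (macrophage and monocyte), and with 1 to 3% 0.750, 0.754, 0.704, 0.709, 0.760 and 0.713 in the same order. Under median ratio scaling they were 0.802 (all kept cells), 0.796 (T), 0.700 (NK and innate lymphoid), 0.746 (plasma) and 0.816 (macrophage and monocyte), with 15 members lower in plasma cells and 13 in macrophages and monocytes, against 8 and 31. In cells with 5000 to 10000 UMIs they were 0.725 (all kept cells), 0.748 (T), 0.690 (NK and innate lymphoid), 0.784 (B) and 0.701 (macrophage and monocyte), with 19 members lower over all kept cells, 16 in T and 7 in B cells, against 11, 10 and 15. Thinned to 1000 UMIs they were 0.748 (all kept cells), 0.789 (T), 0.687 (NK and innate lymphoid) and 0.751 (B). With 3 markers they were 0.777 (T), 0.748 (B) and 0.787 (plasma). Without immunoglobulin and mitochondrial UMIs they were 0.732 (all kept cells, with 17 members lower), 0.783 (T) and 0.700 (macrophage and monocyte). With doublets kept they were 0.766 (all kept cells) and 0.782 (plasma), and with ribosomal protein genes only 0.769 (all kept cells). The cause of these shifts was not tested. Apart from the main setting and the limit of 1000 UMIs per gene, the share of all genes past the fold was not computed. The other member counts here and below therefore stand without it.

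Members at or past 1.5-fold higher numbered 5 (all kept cells), 2 (T), 1 (NK and innate lymphoid), 0 (B), 3 (plasma) and 2 (macrophage and monocyte). With ribosomal protein genes only they were 1 over all kept cells and 0 in NK and innate lymphoid, plasma and macrophage cells. With at least 1000 UMIs per gene they were 2 over all kept cells, 1 in T and plasma cells and 0 in NK and macrophage cells. With at least 100 UMIs they were 1 in T and macrophage cells and 0 in NK cells, and with no minimum 0 in NK and 1 in B cells. In cells with 5000 to 10000 UMIs they were 2 over all kept cells, 1 in T and B cells and 0 in NK cells. Thinned, they were 3 over all kept cells, 1 in T, B and macrophage cells and 0 in NK cells. With 1 to 3% mitochondrial UMIs they were 1 in T and B cells, and with 3 markers 1 in macrophages. The 5 genes of wide composition numbered 5 under all 5 alternatives run, and plasma cell paralogue shares stayed in their intervals. The ranges of UMIs and of mitochondrial UMIs, the barcodes left out and the limit of 1000 UMIs per gene were chosen after seeing the data. NK and innate lymphoid cells with 3 markers and plasma cells with 5000 to 10000 UMIs were too few in CD163_NC, at 45 and 98 cells. Depth limits Rpl10l, Rpl3l and Rpl39l, which had fewer than 20 UMIs in several gates.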
